A study of Homo sapiens with 32 samples.

Results

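The 7 libraries described here are untreated spheroids of the esophageal line EPC2 at day 11 (D11), 7 of the 32 libraries of the study. They come from 2 independent experiments, which the labels call batches. Libraries 4, 6 and 7 belong to batch 2, and libraries 1, 2, 3 and 5 belong to batch 1. All untreated D11 libraries were taken, so no measured value entered their choice, and batch 2 was set against batch 1 across all genes. The comparison asks how far terminal differentiation differed between these 2 experiments.

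EPC2 is a human esophageal epithelial line immortalised with telomerase, labelled WT, and it is 1 line, so the batches are not different donors. Cells were seeded at 40000 per 20 µl droplet of Matrigel, a basement membrane gel, in serum-free keratinocyte medium with 0.6 mM CaCl2. The other libraries are monolayers at day 0 (D0, 5 in batch 2 and 5 in batch 1), spheroids at day 3 (D3, 5 and 4) and 6 D11 spheroid libraries given interleukin 13, which were not used here. Every group compared below was untreated. The labels do not say what separates the libraries of 1 batch, so p-values measure only the spread between these libraries, which may be technical, and 2 experiments cannot give a spread between experiments.

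As background, stratified squamous epithelium renews from basal cells that make keratins 5 and 14. Cells that leave the basal layer switch keratins and then build a cornified envelope, a shell of cross-linked proteins under the membrane. Involucrin and the small proline-rich proteins form its early scaffold, late cornified envelope proteins are added last, and transglutaminases join them. Proteases and their inhibitors control how the dead layers hold together and shed.

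Values are TPM, each transcript's share of its library after correction for transcript length, for 19345 gene symbols. Depth is therefore unknown, and no counting interval can be given. Fewer cells of a type and less RNA per cell cannot be told apart in such bulk samples. Squamous identity was clear in all 7 libraries. KRT5 ranged from 21389 to 32009 TPM, KRT14 from 24467 to 38298 TPM, SOX2 from 33.5 to 59.0 TPM and TP63 from 10.4 to 12.5 TPM. The keratins that mark the suprabasal layers of the esophagus were scarce in both batches, with KRT4 at 12.3 to 17.7 TPM and KRT13 at 8.3 to 16.2 TPM. Of the marker lists for other cells, 4 of 25 columnar, goblet and ciliated genes were at 1 TPM or more in all 7 libraries and 13 were at 0 in all 7. Their sum was 72.5 to 86.7 TPM in batch 2 and 104 to 123 TPM in batch 1, most of it KRT18. For fibroblasts these counts were 1 and 7 of 12, with COL1A1 alone giving nearly all of a sum of 75.3 to 78.5 TPM in batch 2 and 58.2 to 75.5 TPM in batch 1. For immune and endothelial cells they were 3 and 9 of 17, with sums of 522 to 584 TPM in batch 2 and 529 to 588 TPM in batch 1, mainly CD68. Within that list CD14, a monocyte marker, was lower in batch 2, at 13.8, 25.9 and 10.0 TPM against 53.4, 58.8, 38.8 and 46.2 TPM in batch 1. The part of other cell types in the results below was not tested.

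The batches formed separate sets. Across genes, libraries correlated at r = 0.9882 to 0.9899 within batch 2, at 0.989 to 0.9924 within batch 1 and at 0.9702 to 0.9856 between the batches. The first principal component held 58.2% of the variance. Its scores were 24.7, 15.2 and 28.9 for libraries 4, 6 and 7 of batch 2, against -15.7, -22.1, -15.2 and -15.8 for libraries 1, 2, 3 and 5 of batch 1. Library 7 stood farthest from batch 1 and library 6 nearest. The median gene differed by 0.242 between batch means on the log2(TPM + 1) scale, against a median SD of 0.118 within batch 2 and 0.102 within batch 1.

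A gene was tested if it reached 1 TPM in at least 3 of the 7 libraries, and called at a Benjamini-Hochberg adjusted p under 0.05 in limma. Of 10867 genes, 4999 were called, 46.0% in either direction. Higher in batch 2 were 593 genes (5.46%), and lower were 4406 (40.5%). For 5277 genes, 48.6% of those tested, the 2 batches did not overlap. Most differences were small, and 44 genes (0.405%) were higher and 137 (1.26%) lower by 2-fold or more, a log2 difference of at least 1.

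The lean towards lower calls changed with the scale, and which scale is right was not tested. TPM forces each library to 1 total, and the median gene was 0.195 lower in batch 2 (log2). Median-of-ratios rescaling sets the typical gene equal, so near-even calls follow from it. After it, 1701 genes were higher in batch 2 (15.7%) and 1683 were lower (15.5%). Each list below is therefore given both as deposited and rescaled, where a gene stands about 0.2 higher in batch 2. Counts of a list stand against the shares over all genes on the same scale. Mitochondrially encoded transcripts took 20.2, 22.3 and 14.8% of the TPM in libraries 4, 6 and 7 of batch 2, against 23.9, 27.9, 21.6 and 22.9% in libraries 1, 2, 3 and 5 of batch 1. Leaving these transcripts out and rescaling to the rest gave 395 higher and 5448 lower with a median of -0.28, a stronger lean. That direction follows from a share that was larger in batch 1 on average, and its part in the lean was not tested. The genes higher by 2-fold or more were short, with a median transcript of 775 bases where a length was known, against 2423 bases over all tested genes and 2283.5 bases for those lower by 2-fold or more. Whether transcript length has a part in these differences was not tested beyond a rescaling by length class, which gave 1637 higher and 1649 lower. That rescaling also sets the typical gene of each class equal.

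**Figure D1:**
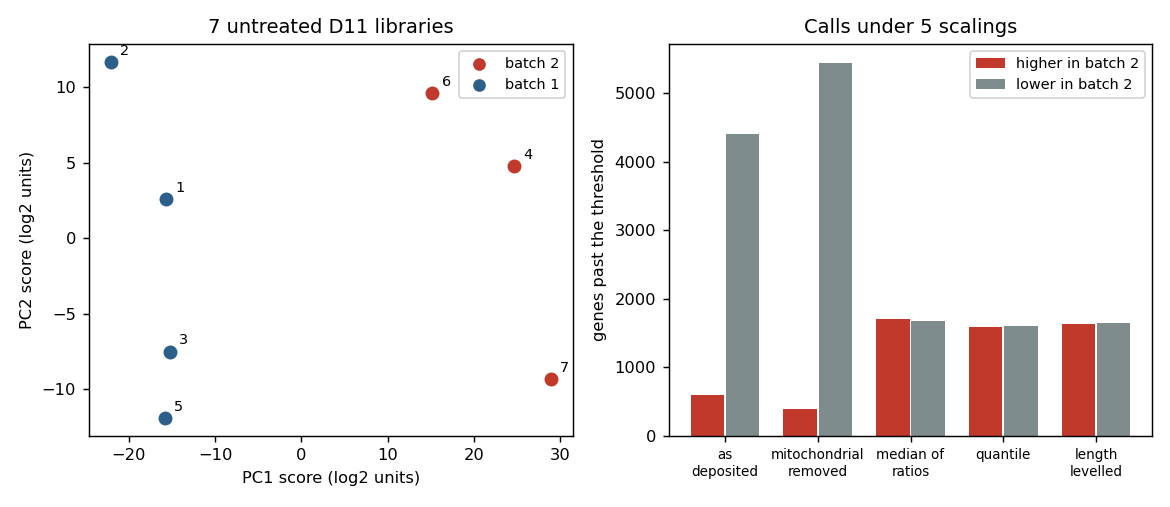
Left, scores of the 7 untreated D11 libraries on the first 2 principal components of log2(TPM + 1), with library numbers; right, genes past the threshold in each direction under 5 scalings. Batch 2 lies at 15.2 to 28.9 and batch 1 at -22.1 to -15.2 on the first component. The calls are near even in number after 3 of the 5 scalings, each of which sets the typical gene equal.

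Late cornified envelope genes were the part of the differentiation program that differed most in size. These genes sit side by side on chromosome 1 and code for small proteins added to the envelope at the end of cornification. Of 15 tested members, CRCT1 (a neighbour of the family) included, 11 were higher in batch 2, none was lower, and all 11 were higher by 2-fold or more. The median difference was 1.34, against -0.195 over all genes, and 12 members were higher after rescaling. Together the family took 1.16, 1.26 and 1.80% of the TPM in batch 2 libraries 4, 6 and 7. In batch 1 libraries 1, 2, 3 and 5 it took 0.513, 0.451, 0.613 and 0.483%, so the batch 2 mean was 2.74 times as high, with no overlap.

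The most abundant member was LCE3D, at 4108, 4493 and 7099 TPM in batch 2, against 1815, 1589, 2218 and 1584 TPM in batch 1. It averaged 5233 ± 1630 TPM in batch 2 (SD, n = 3) and 1802 ± 298 TPM in batch 1 (SD, n = 4), a log2 difference of 1.51 ± 0.20 (SE, adjusted p = 0.0015). LCE3E had 2378, 2599 and 3487 TPM in batch 2 and 1238, 1001, 1286 and 1036 TPM in batch 1 (log2 difference 1.30 ± 0.15, adjusted p = 0.0011). In both genes library 7 was the highest, and the lowest batch 2 library was above every batch 1 library. CRCT1, in the same stretch of the cluster, averaged 4301 ± 867 TPM in batch 2 and 1585 ± 211 TPM in batch 1 (log2 difference 1.43). LCE3A averaged 1365 ± 305 TPM in batch 2 and 536 ± 128 TPM in batch 1 (1.35).

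The LCE1 genes were scarcer and differed by more. LCE1A had 126.3, 66.0 and 296 TPM in batch 2, against 26.3, 16.8, 25.8 and 41.4 TPM in batch 1, a log2 difference of 2.32 ± 0.48 (adjusted p = 0.0061). Its batch 2 libraries spread more than 4-fold among themselves, library 6 being the lowest. LCE1F had 59.7, 57.9 and 140.1 TPM in batch 2 and 17.2, 12.5, 22.5 and 14 TPM in batch 1 (2.21 ± 0.32, adjusted p = 0.0019). LCE1E had 11.8, 17.1 and 34.1 TPM in batch 2 and 3.9, 2.1, 2.7 and 3.9 TPM in batch 1 (2.30 ± 0.32, adjusted p = 0.0017). LCE1B, LCE1C, LCE1D and LCE2D were also higher, by 1.10 to 1.56. LCE2A, LCE2B, LCE2C and LCE6A did not pass, with mean levels of 1.9 to 9.8 TPM in batch 2 and 1.95 to 6.2 TPM in batch 1. LCE genes are close copies, so reads may have been split between them.

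The promoters of 5 members are shown because these genes were higher together in batch 2, and their upstream stretches are copies within each of the LCE1 and LCE3 groups. Each line gives the 110 bases before the RefSeq start (GRCh38.p14), read on the gene's own strand, and capitals mark the longest run that all 5 hold. The windows lie at chr1:152796611-152796720 (LCE1D, plus strand), chr1:152786147-152786256 (LCE1E, plus), chr1:152775030-152775139 (LCE1F, plus), chr1:152580517-152580626 (LCE3D, minus) and chr1:152566781-152566890 (LCE3E, minus).
LCE1D: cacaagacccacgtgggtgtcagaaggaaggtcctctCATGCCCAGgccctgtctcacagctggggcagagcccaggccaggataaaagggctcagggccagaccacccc
LCE1E: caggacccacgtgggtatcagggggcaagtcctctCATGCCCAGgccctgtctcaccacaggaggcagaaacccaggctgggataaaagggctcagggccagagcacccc
LCE1F: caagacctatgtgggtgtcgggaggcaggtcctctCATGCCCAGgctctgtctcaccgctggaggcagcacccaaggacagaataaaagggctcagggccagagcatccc
LCE3D: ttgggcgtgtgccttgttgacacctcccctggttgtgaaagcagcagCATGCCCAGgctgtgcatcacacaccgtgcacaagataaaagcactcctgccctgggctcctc
LCE3E: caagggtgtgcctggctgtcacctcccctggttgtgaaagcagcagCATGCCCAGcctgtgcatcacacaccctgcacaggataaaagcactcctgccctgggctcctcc

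LCE3D and LCE3E were identical at 90.8% of these bases in the best ungapped placement, LCE1E and LCE1F at 83.6%, LCE1D and LCE1F at 63.0%, LCE1D and LCE1E at 61.1%, and LCE1 and LCE3 promoters at 36.4 to 42.2% of each other. The shared run CATGCCCAG, on either strand, stood in 6 of the 13 tested late envelope genes that RefSeq's promoter table lists, against 20 of 8583 tested genes (0.233%). These runs were picked because all 5 printed promoters hold them, so 5 of the 13 were bound to match. A second shared run, ATAAAAG, close to the letters of a TATA box, stood in 12 of the 13 (92.3%), against 126 of the 8583 (1.47%). The shared run GGGCTC stood in 6 of the 13 and in 1255 of the 8583 (14.6%). LCE1B and CRCT1 had no entry in the table. An AP-1 site, TGANTCA on either strand, in the 250 bases before the start was in 0 of the 13 and in 371 of the 8583 (4.32%). These runs are a description of copies of 1 gene family, and no factor's binding was measured.

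Across the chromosomal cluster, the difference was not shared by all neighbours. The epidermal differentiation complex, taken as chr1:151982915-153632039 (GENCODE 29, hg38), held 50 tested genes, of which 20 were higher and 8 lower in batch 2. Outside the late envelope list it held 35 tested genes, 9 higher and 8 lower as deposited, with a median difference of 0.142. Over all genes 5.46% were higher and 40.5% lower, with a median of -0.195, so these neighbours too leaned upwards. After rescaling, 28 of the 50 were higher and 0 were lower, against 15.7% and 15.5% over all genes.

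The small proline-rich proteins, which lie in the same complex and are scaffold partners of involucrin, were split. Of 10 tested, 2 were higher and 2 lower, with a median difference of 0.047, and only 1 was lower without library 4 or library 7 of batch 2. SPRR1B had 14872, 12731 and 19419 TPM in batch 2, against 10259, 8994, 11276 and 9458 TPM in batch 1 (log2 difference 0.63 ± 0.15, adjusted p = 0.01). SPRR2G averaged 326 ± 98.2 TPM in batch 2 and 162 ± 25.4 TPM in batch 1 (0.97 ± 0.20, adjusted p = 0.006). SPRR2A went the other way, with 2714, 3189 and 2751 TPM in batch 2 and 6176, 5385, 4630 and 3313 TPM in batch 1 (-0.72 ± 0.19, adjusted p = 0.018). SPRR2D was likewise lower (-0.73 ± 0.20, adjusted p = 0.019). After rescaling 4 members were higher and 0 lower, with SPRR2A at -0.49 (adjusted p = 0.097) and SPRR2D at -0.50 (adjusted p = 0.1). SPRR1A, at 27730 ± 413 TPM in batch 2 and 22900 ± 2660 TPM in batch 1, did not pass (adjusted p = 0.052), and SPRR3 did not either (0.17 ± 0.12, adjusted p = 0.26), while both passed after rescaling (adjusted p = 0.011 and 0.041). SPRR genes too are near copies, and levels within the SPRR2 group are uncertain.

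**Figure D2:**
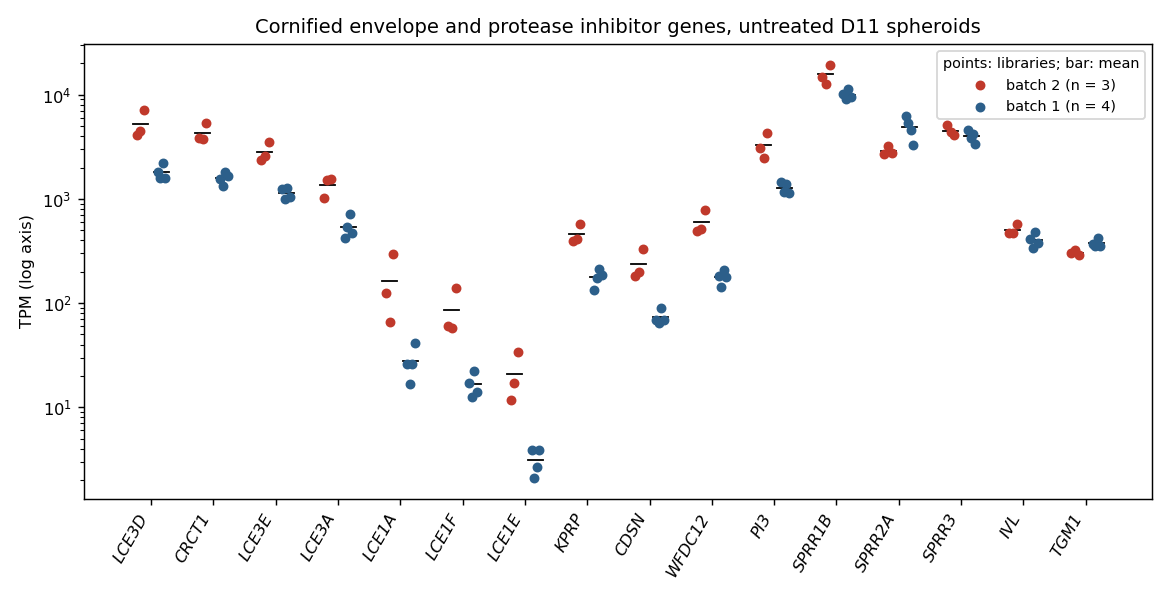
TPM on a log axis in each untreated D11 library for 16 envelope and protease inhibitor genes, with batch 2 left of batch 1 and a bar at each mean. The late envelope genes, KPRP, CDSN, WFDC12 and PI3 do not overlap between batches, IVL and SPRR3 do, and SPRR2A and TGM1 are lower in batch 2.

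Among envelope scaffold, filaggrin-type and transglutaminase genes, 7 of 23 were higher in batch 2, 3 were lower, and the median difference was 0.197. Without library 7 of batch 2 these counts were 4 and 1, and without library 4 of batch 2 they were 4 and 3. The 4 that differed by 2-fold or more were CDSN, KPRP, S100A7 and CNFN. CDSN, which codes for corneodesmosin, an adhesive protein of late desmosomes, had 181.8, 199.7 and 332 TPM in batch 2, against 69.5, 64.4, 90.2 and 68.6 TPM in batch 1. Its log2 difference was 1.65 ± 0.21 (adjusted p = 0.0013). KPRP, a proline-rich keratinocyte protein, averaged 461 ± 100.0 TPM in batch 2 and 176 ± 33.4 TPM in batch 1 (1.38 ± 0.18, adjusted p = 0.0014). S100A7 (psoriasin) was low, at 8.2 ± 2.03 TPM in batch 2 and 3.28 ± 1.88 TPM in batch 1 (1.20 ± 0.34, adjusted p = 0.022).

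The cross-linking enzymes did not follow. TGM1, the membrane-bound transglutaminase that attaches the envelope, was at 302, 321 and 287 TPM in batch 2 and at 368, 355, 425 and 352 TPM in batch 1 (-0.30 ± 0.08, adjusted p = 0.018). TGM3 averaged 3.9 ± 0.781 TPM in batch 2 and 6.58 ± 1.16 TPM in batch 1 (-0.63 ± 0.15, adjusted p = 0.0099). CRNN, cornulin, an envelope protein of esophageal squamous cells, was at 170 ± 41.4 TPM in batch 2 and 251 ± 42.6 TPM in batch 1 with overlap (-0.57 ± 0.19, adjusted p = 0.037). None of these 3 passed after rescaling (-0.07, -0.44 and -0.34), where 13 of the list were higher and 0 lower. FLG (filaggrin) was at 8.9 ± 0.265 TPM in batch 2 and 6.75 ± 1.01 TPM in batch 1 (0.36 ± 0.10, adjusted p = 0.023). IVL (involucrin) overlapped, at 507 ± 62.4 TPM in batch 2 and 401 ± 62.3 TPM in batch 1 (0.34 ± 0.13, adjusted p = 0.061), and it passed after rescaling (0.57, adjusted p = 0.017). LORICRIN, the main envelope protein of skin, was at 2.7 to 9.5 TPM over both batches and did not pass (adjusted p = 0.5).

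Of 40 tested proteases and protease inhibitors, 16 were higher in batch 2 and 6 were lower, with a median difference of 0.192. After rescaling 20 were higher and 0 lower. Without library 7 of batch 2 there were 9 higher and 1 lower, and the lower count was 2 without library 6 of batch 2 and 3 without library 1 of batch 1. The 4 higher by 2-fold or more were WFDC12, PI3, ASPRV1 and SPINK6, and 3 of these are inhibitors. WFDC12, a whey acidic protein type inhibitor, had 497, 518 and 782 TPM in batch 2 and 183.6, 143.7, 209.9 and 178.7 TPM in batch 1 (1.72 ± 0.18, adjusted p = 0.001). PI3, or elafin, an elastase inhibitor that is itself linked into the envelope, had 3087, 2444 and 4308 TPM in batch 2 and 1442, 1174, 1376 and 1142 TPM in batch 1 (1.32 ± 0.18, adjusted p = 0.0016). In both inhibitors every batch 2 library was above every batch 1 library. ASPRV1, the protease that trims filaggrin in skin, averaged 13.6 ± 6.67 TPM in batch 2 and 4.85 ± 2.3 TPM in batch 1 (1.32 ± 0.38, adjusted p = 0.023). SPINK7, an esophageal serine protease inhibitor, was at 288, 320 and 387 TPM in batch 2 and at 238, 165.1, 248 and 215 TPM in batch 1 (0.62 ± 0.15, adjusted p = 0.013).

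Lower in batch 2 were KLK8, TMPRSS11D and SPINK5 among others. KLK8, a kallikrein protease, averaged 149 ± 12.5 TPM in batch 2 and 204 ± 16.7 TPM in batch 1 (-0.45 ± 0.09, adjusted p = 0.0045). SPINK5, an inhibitor of kallikreins, averaged 26.3 ± 5.8 TPM in batch 2 and 37.3 ± 3.11 TPM in batch 1 (-0.51 ± 0.13, adjusted p = 0.016). After rescaling both fell short of the threshold (adjusted p = 0.085 and 0.14). CAPN14, the esophageal calpain protease, was at 0.1 to 0.2 TPM in all 7 libraries and was not tested.

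Keratins of the suprabasal layers and of activated keratinocytes differed less. Of 16 tested, 5 were higher in batch 2, none was lower, and the median difference was 0.219, while 10 were higher after rescaling. KRT1, the suprabasal keratin of epidermis, had 86.5, 102.9 and 136.6 TPM in batch 2, against 61.3, 48.8, 63.0 and 45.6 TPM in batch 1 (0.97 ± 0.17, adjusted p = 0.0036). Its partner KRT10 overlapped, at 1296 ± 33.2 TPM in batch 2 and 1494 ± 205 TPM in batch 1 (-0.19 ± 0.11, adjusted p = 0.17). KRT17, a keratin of activated cells, averaged 22450 ± 3370 TPM in batch 2 and 13580 ± 1380 TPM in batch 1 (0.72 ± 0.13, adjusted p = 0.0034). KRT23 was higher at a low level, 6.23 ± 1.63 TPM in batch 2 and 2.75 ± 0.129 TPM in batch 1 (0.92 ± 0.14, adjusted p = 0.0019). KRT6A (0.23 ± 0.10, adjusted p = 0.083) and KRT16 (0.11 ± 0.10, adjusted p = 0.43) did not pass. KRT4 (adjusted p = 0.11) and KRT13 (adjusted p = 0.45) did not pass either. After rescaling KRT6A, KRT16 and KRT4 passed as higher (adjusted p = 0.013, 0.041 and 0.022). KRT6 and KRT14, KRT16 and KRT17 have near-identical copies, so their levels carry that uncertainty.

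Of 18 tested basal keratinocyte genes, 4 were higher and 2 lower in batch 2 and 12 did not pass, with a median difference of -0.061. The higher calls were few and unsteady, at 0 to 2 with any single library left out, and the lower calls were 5 without library 6 of batch 2 and 1 or 2 without any other. KRT5 averaged 28960 ± 2730 TPM in batch 2 and 23560 ± 1730 TPM in batch 1 (0.30 ± 0.10, adjusted p = 0.037), and KRT14 differed by 0.35 ± 0.11 (adjusted p = 0.037). CAV1, caveolin 1, was higher by 0.34 ± 0.12 (adjusted p = 0.042). NGFR, a neurotrophin receptor of basal cells, passed near the filter limit and with overlap, at 1.03 ± 0.0577 TPM in batch 2 and 0.55 ± 0.311 TPM in batch 1. KRT15 (-0.46 ± 0.14, adjusted p = 0.031) and ITGA3 (-0.35 ± 0.08, adjusted p = 0.0093), an integrin of the basement membrane contact, were lower. After rescaling 7 members were higher and 0 lower. TP63, the basal master factor, was at 11.2 ± 0.917 TPM in batch 2 and 12.2 ± 0.427 TPM in batch 1 (adjusted p = 0.21). MKI67, a marker of cycling cells, lay at 0.6 to 1.4 TPM over both batches (adjusted p = 0.56). KLF4, a factor of the suprabasal switch, differed by -0.06 ± 0.06 (adjusted p = 0.43), and DSG1, the suprabasal desmosome cadherin, by -0.33 ± 0.12 (adjusted p = 0.055).

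**Figure D3:**
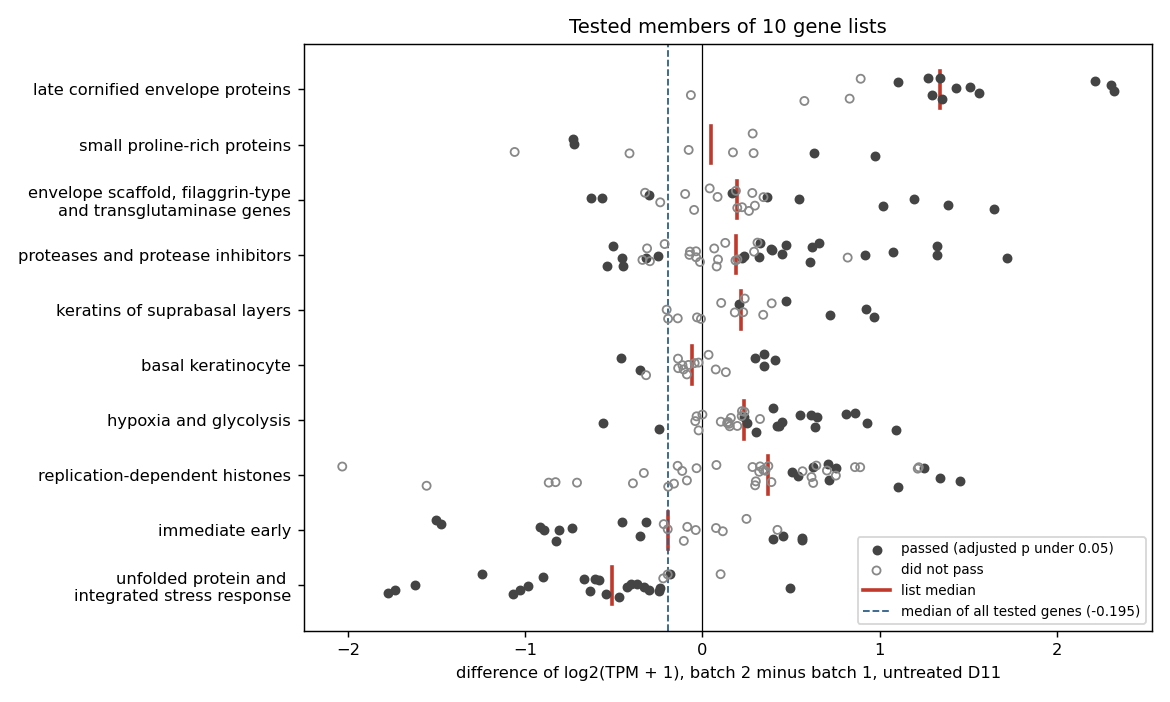
Difference of log2(TPM + 1), batch 2 minus batch 1, for each tested member of 10 gene lists, filled where it passed, with the list median in red and the median of all tested genes (-0.195) dashed. All 11 called late envelope genes lie above 1. Of 26 unfolded protein and integrated stress response genes, 22 were lower as deposited, against 40.5% of all genes.

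Among the 32 gene lists, the widest shift in the other direction was in the unfolded protein and integrated stress response. Cells start this program when proteins misfold or amino acids run short. Of 26 tested genes, 22 were lower in batch 2 and 1 was higher, with a median difference of -0.508, and 6 were lower by 2-fold or more. Over all genes 40.5% were lower and 5.46% higher, the median was -0.195, and 1.26% were lower by 2-fold or more. After rescaling 14 were lower and 2 higher, against 15.5% and 15.7% over all genes. The list summed to 0.425, 0.451 and 0.399% of the TPM in batch 2 and to 0.593, 0.626, 0.570 and 0.57% in batch 1.

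CHAC1, a glutathione-degrading enzyme and a target of the transcription factor ATF4, had 45.3, 56.9 and 35.9 TPM in batch 2, against 132.4, 175.7, 145.6 and 163.1 TPM in batch 1. Its log2 difference was -1.74 ± 0.16 (adjusted p = 0.00094). ASNS, asparagine synthetase, had 19.8, 30.7 and 17.4 TPM in batch 2 and 71.3, 84.1, 62.3 and 63.2 TPM in batch 1 (-1.62 ± 0.19, adjusted p = 0.0011). PSAT1, an enzyme of serine synthesis, had 17.3, 27.4 and 15.3 TPM in batch 2 and 72.6, 77.3, 65.2 and 61.0 TPM in batch 1 (-1.77 ± 0.18, adjusted p = 0.001). In all 3 the batches were far apart, and library 6 was the highest of batch 2. HSPA5, the main chaperone of the endoplasmic reticulum, averaged 554 ± 67.7 TPM in batch 2 and 1143 ± 210 TPM in batch 1 (-1.03 ± 0.15, adjusted p = 0.0019). ATF4 itself was lower by less, at 1315 ± 153 TPM in batch 2 and 1910 ± 45.6 TPM in batch 1 (-0.54 ± 0.08, adjusted p = 0.0022).

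One member was higher. PPP1R15A, the phosphatase subunit that switches the response off again, had 737, 658 and 737 TPM in batch 2 and 575, 511, 474 and 459 TPM in batch 1 (0.50 ± 0.09, adjusted p = 0.004). Outside the list, the largest falls included GDF15, a stress-induced cytokine, at 3.1, 4.1 and 1.8 TPM in batch 2 and 18.4, 22, 12.4 and 11.7 TPM in batch 1 (-2.10 ± 0.26, adjusted p = 0.0013). STC2, a secreted glycoprotein, was at 20.3, 27.1 and 14.4 TPM in batch 2 and 74.1, 91.2, 56.0 and 59.0 TPM in batch 1 (-1.73 ± 0.23, adjusted p = 0.0014).

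The upstream sequences of CHAC1 and ASNS are shown because they hold the letters of the ATF4 composite site, TGATGNAA on either strand, which capitals mark. Each is the 250 bases before the RefSeq start (GRCh38.p14) on the gene's strand, at chr15:40953221-40953470 (CHAC1, plus) and chr7:97872409-97872658 (ASNS, minus).
CHAC1: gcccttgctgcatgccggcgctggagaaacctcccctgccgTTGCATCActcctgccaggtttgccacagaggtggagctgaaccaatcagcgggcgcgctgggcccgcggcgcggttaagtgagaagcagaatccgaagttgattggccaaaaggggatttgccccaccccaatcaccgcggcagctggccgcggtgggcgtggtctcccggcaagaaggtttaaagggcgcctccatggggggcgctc
ASNS: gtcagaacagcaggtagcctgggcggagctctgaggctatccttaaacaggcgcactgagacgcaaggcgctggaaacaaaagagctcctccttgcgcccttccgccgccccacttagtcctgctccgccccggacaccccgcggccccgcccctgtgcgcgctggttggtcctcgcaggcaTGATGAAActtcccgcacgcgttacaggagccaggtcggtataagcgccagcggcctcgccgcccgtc

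These letters stood in 4 of the 25 list members with an entry (16%), namely ASNS, ATF3, CHAC1 and HERPUD1, and in 119 of 8583 tested genes (1.39%). ATF3 did not pass at D11 (-0.20 ± 0.08, adjusted p = 0.082). A match is a description of letters and not a bound site.

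Immediate early genes, which growth factors and stress switch on within minutes, were mixed. Of 23 tested, 10 were lower and 4 higher in batch 2, with a median of -0.196, and after rescaling 6 were lower and 8 higher. Both the share lower and the median were near those of all genes (40.5% and -0.195), while the 4 of 23 higher stood against 5.46%. After rescaling the shares over all genes were 15.5% lower and 15.7% higher. On that scale calls were thus more frequent in this list in both directions. FOS, an AP-1 subunit, had 113.5, 140.3 and 106.9 TPM in batch 2, against 352, 395, 368 and 265 TPM in batch 1 (-1.51 ± 0.15, adjusted p = 0.001). EGR1, a zinc finger factor, had 68.7, 85.7 and 71.7 TPM in batch 2 and 209, 304, 235 and 130.8 TPM in batch 1 (-1.47 ± 0.25, adjusted p = 0.003). DUSP6, a phosphatase that limits ERK signalling, was at 93.4 ± 1.63 TPM in batch 2 and 178 ± 15.6 TPM in batch 1 (-0.92 ± 0.08, adjusted p = 0.00088). CCN1 (0.56 ± 0.06), DUSP5 (0.56 ± 0.15) and BTG2 (0.45 ± 0.07) were higher, at adjusted p = 0.001, 0.016 and 0.0019.

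Hypoxia and glycolysis genes leaned higher in batch 2. Of 32 tested, 15 were higher and 2 lower with a median of 0.236, and 28 were higher after rescaling. ANKRD37, a target of the hypoxia-inducible factor, had 262, 208 and 309 TPM in batch 2 and 121.6, 84.3, 159.2 and 124.5 TPM in batch 1 (1.09 ± 0.21, adjusted p = 0.0048). ADM, adrenomedullin, averaged 2554 ± 445 TPM in batch 2 and 1349 ± 287 TPM in batch 1 (0.93 ± 0.18, adjusted p = 0.0048). ENO2, a glycolytic enolase, was higher by 0.86 ± 0.14 (adjusted p = 0.0025). VEGFA, the angiogenic factor, was lower with overlap, at 136 ± 29.2 TPM in batch 2 and 202 ± 47.0 TPM in batch 1 (-0.56 ± 0.20, adjusted p = 0.047), and PFKL, a phosphofructokinase, was lower by -0.24 ± 0.06 (adjusted p = 0.013). Neither passed after rescaling (adjusted p = 0.23 and 0.83).

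Replication-dependent histone transcripts, which normally lack a poly(A) tail, were called in 11 of 43 members, all higher in batch 2, with a median of 0.372 and 14 higher after rescaling. Without library 7 of batch 2 the counts were 6 higher and 1 lower, and without library 4 of batch 2 they were 6 and 0. The list summed to 0.133, 0.113 and 0.198% of the TPM in libraries 4, 6 and 7 of batch 2 and to 0.0918, 0.0875, 0.133 and 0.126% in libraries 1, 2, 3 and 5 of batch 1, so libraries 4 and 6 overlapped batch 1. H2AC7 had 10.2, 13.7 and 13.2 TPM in batch 2 and 3.8, 1.3, 4.9 and 7.4 TPM in batch 1 (1.46 ± 0.38, adjusted p = 0.016). H4C4 had 2.9, 1.7 and 4.2 TPM in batch 2 and 1.2, 0.0, 0.0 and 1.3 TPM in batch 1 (1.34 ± 0.37, adjusted p = 0.019). H2AC13 overlapped, at 12.1 ± 4.03 TPM in batch 2 and 4.95 ± 3.45 TPM in batch 1 (1.25 ± 0.38, adjusted p = 0.028). These genes are near copies of each other. Of 21 tested cell cycle genes, 0 were higher and 6 lower as deposited, against 40.5% lower over all genes, and 0 higher and 1 lower after rescaling.

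Among genes that belong to none of the groups above, 7 complete the 16 largest differences with no overlap and a mean of at least 5 TPM. TNFAIP3, an inhibitor of NF-κB signalling, was at 119.2, 131.9 and 150.2 TPM in batch 2 and at 41.9, 42.7, 43.4 and 47.0 TPM in batch 1 (1.59 ± 0.09, adjusted p = 0.00071). DEFB103A, beta-defensin 3, was at 32.4, 34.1 and 64.9 TPM in batch 2 and 8.0, 16.5, 21 and 5.5 TPM in batch 1 (1.80 ± 0.44, adjusted p = 0.012), and shares its sequence with a second gene copy. KRTAP19-1, a hair keratin associated protein gene, differed by 1.59 ± 0.42 (adjusted p = 0.017). Another antimicrobial peptide went the other way. CAMP, the cathelicidin, was at 0.8, 2.0 and 1.2 TPM in batch 2 and 8.6, 12.8, 8.2 and 9.6 TPM in batch 1 (-2.22 ± 0.19, adjusted p = 0.00088). BEX2 was at 9.9 ± 3.2 TPM in batch 2 and 50.2 ± 17.4 TPM in batch 1 (-2.21 ± 0.30, adjusted p = 0.0015). HES6, a bHLH factor, was at 10.5 ± 3.67 TPM in batch 2 and 42.6 ± 15.4 TPM in batch 1 (-1.91 ± 0.31, adjusted p = 0.0026). MRPS17, a mitochondrial ribosomal protein, was at 2.3, 2.7 and 0.4 TPM in batch 2 and 9.2, 8.7, 11.0 and 8.0 TPM in batch 1 (-1.98 ± 0.31, adjusted p = 0.0023), and overlaps a readthrough gene, so its level is uncertain.

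The other lists are given on both scales. Over all genes 5.46% were higher and 40.5% lower as deposited, and 15.7% and 15.5% after rescaling. More lower than higher calls as deposited was thus the rule over all genes. As deposited, more members were lower than higher in cholesterol biosynthesis (2 higher and 8 lower of 25), squamous transcription factors (5 and 10 of 28), NRF2 and antioxidant genes (3 and 10 of 23), antimicrobial and acute phase genes (4 and 7 of 19), wound-edge and partial EMT genes (4 and 6 of 22), epithelial cytokines and chemokines (3 and 5 of 22), heat shock chaperones (2 and 4 of 19) and Notch pathway genes (2 and 4 of 19). After rescaling all 8 had more members higher, with 10 and 2 for cholesterol biosynthesis and for transcription factors, 6 and 4 for NRF2 genes, 8 and 3 for antimicrobial genes, 10 and 2 for wound-edge genes, 6 and 4 for cytokines, 7 and 2 for heat shock chaperones and 6 and 0 for Notch genes. Barrier lipid enzymes (1 and 12 of 26) and desmosomes and tight junctions (1 and 8 of 23) became 4 and 3 each. Retinoid and aryl hydrocarbon response genes had 1 higher and 9 lower of 14 as deposited, and 1 and 3 after rescaling. Interferon-stimulated genes had 0 and 4 of 17, and 0 and 2 after rescaling. Mitochondrially encoded transcripts had 0 and 4 of 13, and 0 and 0 after rescaling. YAP and SRF targets had 5 higher and 1 lower of 21, and 12 and 0 after rescaling. Cytosolic ribosomal proteins had 7 and 0 of 77, and 33 and 0 after rescaling, but 1 and 2 as deposited without library 7 of batch 2. IL-13 response genes had 2 and 2 of 9, and 4 and 1 after rescaling. The small lists were metallothioneins (1 and 2 of 5, then 1 and 1), membrane mucins (0 and 1 of 3 on both scales), columnar genes (0 and 2 of 5, then 0 and 1) and immune and endothelial genes (0 and 1 of 3, then 2 and 1). The 1 tested fibroblast gene, COL1A1, did not pass as deposited (0.25 ± 0.09, adjusted p = 0.052) and passed as higher after rescaling (0.48, adjusted p = 0.0064).

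The same 2 experiments were compared at the earlier days to see whether the difference was already there. At D0, with 5 monolayers a batch, 3742 of 11462 genes were higher in batch 2 (32.6%) and 4725 lower (41.2%), so the monolayers differed between experiments too. The labels do not say whether these monolayers seeded the spheroids. Both days tested 10176 genes in common. At D11, 4267 of them were lower and 483 higher in batch 2, and at D0, 4165 were lower and 3405 higher. Of these genes, 2037 were lower in batch 2 on both days and 226 higher on both. Against this, 1246 were lower at D11 and higher at D0, and 150 were higher at D11 and lower at D0. Whether these overlaps differ from what the totals of each day alone would give was not tested. The batch difference at D11 itself differed from that at D0 for 6044 of 12471 genes, 1966 of them upwards (15.8%) and 4078 downwards (32.7%).

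The stress response changed sides between the days. At D0, 22 of 26 genes of that list were higher in batch 2 and 2 lower, against 32.6% and 41.2% over all genes. For 23 of 26 the batch difference was lower at D11 than at D0, against 32.7% over all genes. CHAC1 was at 268 ± 15.7 TPM in batch 2 monolayers and 22.8 ± 2.16 TPM in batch 1 monolayers (SD, n = 5 each), a log2 difference of 3.51 ± 0.06, and its D11 difference was lower by 5.24 (adjusted p = 0.0014). ASNS was at 89.9 ± 5.62 TPM in batch 2 and 12.7 ± 0.427 TPM in batch 1 at D0, and PSAT1 at 85.0 ± 2.54 TPM in batch 2 and 22.9 ± 1.54 TPM in batch 1. Of the immediate early genes, which were mixed at D11, 20 of 23 were higher in batch 2 at D0, against 32.6% over all genes. EGR1 was at 1460 ± 49.1 TPM in batch 2 monolayers and 61.1 ± 8.45 TPM in batch 1 monolayers. Hypoxia and glycolysis genes leaned the opposite way, with 18 of 30 lower and 6 higher in batch 2 at D0, against 41.2% and 32.6% over all genes. Interferon-stimulated genes were higher in batch 2 monolayers in 31 of 31 tested, against 32.6% over all genes at D0. At D11 fewer of them could be tested, and of 17 there were 0 higher and 4 lower. Over all genes at D11, 5.46% were higher and 40.5% lower.

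The late envelope genes were barely made at D0, where 2 of them reached the level for testing. LCE1C was higher in batch 2, at 2.2 ± 0.972 TPM in batch 2 monolayers and 0.98 ± 0.716 TPM in batch 1 monolayers (0.72 ± 0.28, adjusted p = 0.036), and LCE1F did not pass (adjusted p = 0.22). LCE3E and LCE1A were listed at 0 in all 10 monolayers, and LCE3D reached at most 3.3 TPM in batch 2 and 1.0 TPM in batch 1. CDSN was at 0.0 to 2.0 TPM in batch 2 monolayers and 2.0 to 5.3 TPM in batch 1 monolayers, the opposite order to D11.

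**Figure D4:**
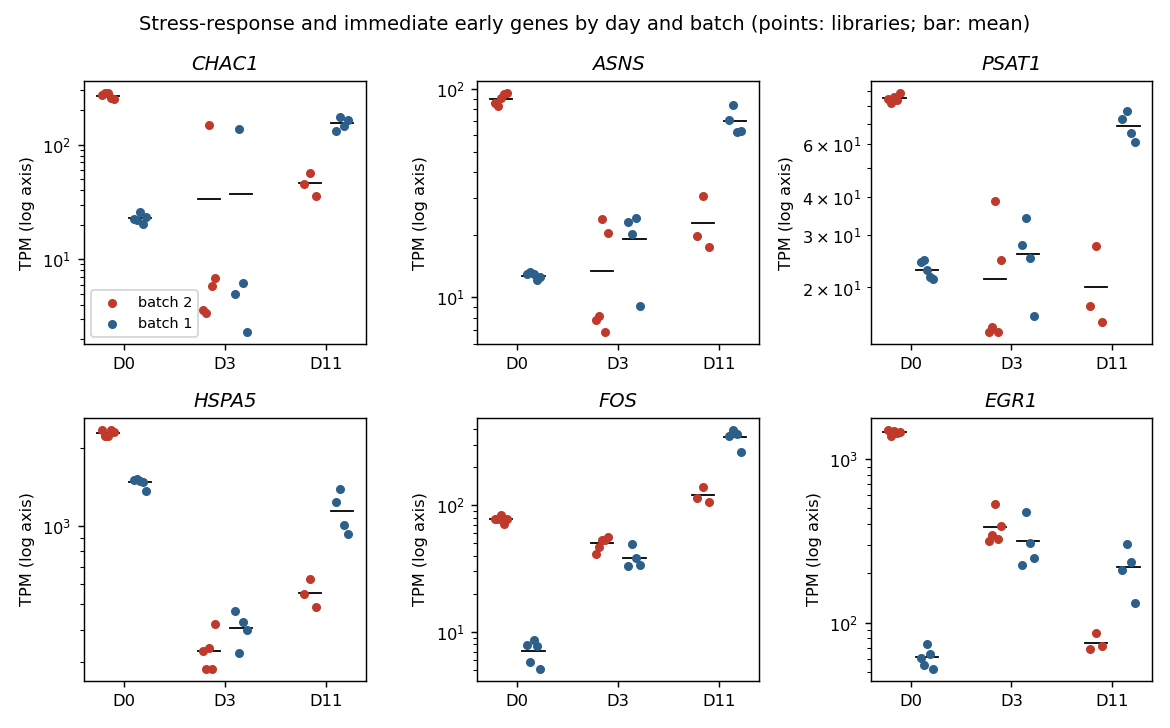
TPM on log axes of 6 genes by day and batch, with batch 2 left of batch 1, 1 point per library and a bar at each mean. All 6 are higher in batch 2 at D0 and lower in batch 2 at D11, and the batches overlap at D3.

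At D3 the picture depends on 2 libraries. Library 4 of batch 1 and library 7 of batch 2 resemble the other batch in differentiation, LCE3D being 112 TPM in the highest batch 1 library and 4.2 TPM in the lowest batch 2 library. With all 9 libraries, limma called 0 of 10862 genes, with 257 at an unadjusted p under 0.05. Without these 2 libraries, 1118 of 10702 were higher in batch 2 (10.4%) and 565 lower (5.28%), but the 2 were left out because their values go against their label, so this count is no independent evidence. In it LCE3D differed by 5.37 ± 0.43 and IVL by 2.76 ± 0.16, and CHAC1 and ASNS did not pass (adjusted p = 0.45 and 0.27).

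The calls at D11 have limits of 2 kinds. Without library 7 of batch 2, the library with the most late envelope transcripts, 356 genes were higher and 3429 lower. When all 26 untreated libraries shared 1 estimate of spread, where the median SD at D3 was 0.157 in batch 2 and 0.186 in batch 1, 508 were higher and 4405 lower, and LCE3D (adjusted p = 0.27), KPRP (0.14), CDSN (0.095), PI3 (0.11) and CHAC1 (0.14) no longer passed.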

How the data were processed

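A single table was deposited by the authors, with TPM to 1 decimal for 19345 symbols in 32 libraries. The submitters' processing notes name hg38. No source used here gives the aligner, the quantifier or how strand was treated, and antisense or overlapping genes may share reads. Columns were matched to samples by name, and 6 IL-13 columns whose numbers match no sample title were not used. The 26 untreated libraries were grouped by day and batch. Of the symbols, 19221 were found in GENCODE 29, which gave positions and lengths.

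Values were taken as log2(TPM + 1), so differences understate changes of low genes. Genes at 1 TPM or more in 3 of 7 (D11), 5 of 10 (D0), 4 of 9 (D3) or 3 of 26 libraries (differences between days) were tested with limma 3.58.1 (R 4.3.3) with an intensity trend and Benjamini-Hochberg adjustment, without covariates. Levels are mean ± SD and differences are batch 2 minus batch 1 ± SE. The procedure was tested on simulated data that held no difference in scale between batches. That test therefore does not bear on the median difference of -0.195. The largest share of equal values between 2 libraries was 1.72% of genes at 10 TPM or more, and all were kept as separate samples.

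The members, the 32 gene lists and the rule for named genes were chosen with earlier results of these data known. Named genes were the 8 largest rises and falls with no overlap and a mean of 5 TPM, up to 3 rises and 3 falls of each of 10 described lists, and 26 genes whatever their result. Other genes named in the text (such as LCE3A, CRCT1, HSPA5, ATF4, ATF3, CNFN and SPINK6) were chosen after their values were seen. Promoters came from RefSeq (GRCh38.p14). Alternatives covered scaling, pseudocount, filter, spread and single libraries. Figures were drawn with matplotlib 3.10.9. Of the culture protocol, 1 part is not reported here.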

Additional observations from a re-analysis of the deposited data

Results flagged for a closer look

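For 6044 genes the batch difference at D11 differed from that at D0, and for 2913 it differed from that at D3, by tests of the difference itself in a fit with 6 groups of day and batch. Over all genes the first count was 6044 of 12471. Many named genes were picked for their D11 difference, which enters this test, so a count among them is no result about them. Of the 44 named genes tested on both days, 32 were among the 6044. Their values, the D11 difference minus the D0 difference on the log2 scale, were lowest for EGR1 (-6.04), GDF15 (-5.32), CHAC1 (-5.24), FOS (-4.82), STC2 (-4.80), ASNS (-4.35), PSAT1 (-3.62), SPRR2D (-3.55), BEX2 (-3.45) and HES6 (-3.44). They were also negative for VEGFA (-2.55), CAMP (-2.27), PPP1R15A (-2.24), KLF4 (-1.82), NGFR (-1.65), DUSP6 (-1.32), MRPS17 (-0.92), ITGA3 (-0.75), TP63 (-0.64), CCN1 (-0.42) and BTG2 (-0.40). They were positive for CDSN (3.30), LCE1F (2.58), H4C4 (2.13), ANKRD37 (1.53), ENO2 (1.36), CAV1 (1.27), KRT6A (1.02), ADM (0.88), MKI67 (0.74), KRT15 (0.61) and KRT5 (0.55). Among the genes of either sign, KLF4, TP63, KRT6A and MKI67 did not pass in limma at D11 itself (adjusted p = 0.43, 0.21, 0.083 and 0.56).

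Within batch 1 at D11, 2 of 84 groups had 1 library far from the other 3, where chance gives about 1 in 20. ENO2 was lowest in library 2, at 61.5 TPM against 73.0 to 74.9 TPM in the others, a gap of 0.858 of the range. CAPN14 was at 0.1 TPM in library 3 and 0.2 TPM in the other 3, a gap of 1.0 of the range, which is 1 step of the deposited decimal.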

How the results depend on the processing

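The number of genes differing at D11, 4999, was 3189 with quantile normalization and 3286 with transcript length classes levelled, an alternative chosen after seeing the data. Those differing by 2-fold or more, 181, numbered 315 with a pseudocount of 0.1 and 56 with one of 5. At D3 the count was 1683 without libraries 4 and 7, and 0 to 1 with each library left out in turn, which was also added after seeing the data. Genes whose D11 difference differed from that at D3, 2913, numbered 1901 with median-of-ratios scaling, 1720 with quantile normalization, 4828 without those libraries and 1956 to 2960 with D11 libraries left out in turn, library 7 of batch 2 giving the lowest. Each D11 library left out in turn gave 3785 to 4807 genes at D11. Over the named genes and the alternatives at D11, 1137 values kept their side of the threshold, 139 lost it and 34 gained it, and no called value changed sign. The most were lost when all 26 untreated libraries shared 1 spread (24 genes) and without library 7 of batch 2 (18 genes). KRT10, KRT13, KLF4, TP63 and MKI67 changed sign in 14 values, none of them past the threshold. No paired analysis was possible because the batches share no library number at D11. TPM keeps no depth, so the limit that depth sets on low genes such as S100A7, NGFR or the LCE2 genes is unknown.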

Other observations

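Cytosolic aminoacyl-tRNA synthetases, which load amino acids onto tRNA, were looked at after WARS1, IARS1, AARS1 and MARS1 were seen among the genes lower by 2-fold or more in batch 2 at D11, so the family gets no test of its own. Taken whole by symbol, 17 of 20 were lower, 0 higher and the median difference was -0.54. Over all genes 40.5% were lower and 5.46% higher, with a median of -0.195. After median-of-ratios rescaling 12 were lower and 1 higher (median -0.32), against 15.5% and 15.7% over all genes. AARS1 was at 27.5 ± 6.77 TPM in batch 2 and 63.7 ± 5.74 TPM in batch 1, and WARS1 at 3.5 ± 1.14 TPM in batch 2 and 10.1 ± 1.55 TPM in batch 1. QARS1 was at 58.0 ± 3.37 TPM in batch 2 and 58.1 ± 2.6 TPM in batch 1 (adjusted p = 0.98). At D0, 11 of the 20 were higher in batch 2 and 7 lower, against 32.6% and 41.2% over all genes.

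Their mitochondrial counterparts, which serve translation inside the organelle, had 9 of 13 lower and 0 higher at D11 (median -0.32), and 3 lower and 1 higher after rescaling. Over all genes 40.5% were lower as deposited and 15.5% after rescaling. At D0, 14 of 16 were lower in batch 2 and 0 higher, against 41.2% and 32.6% over all genes. MARS2 had the largest difference at D11, at 5.27 ± 1.53 TPM in batch 2 and 15.3 ± 4.6 TPM in batch 1.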
